A study of Homo sapiens with 6 samples.

Results

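The genes described here encode the cohesin complex and the proteins that load it, release it and end its hold on sister chromatids. They were chosen by name in the deposited expression table, and all 10 (RAD21, SMC1A, SMC3, STAG1, STAG2, NIPBL, WAPL, PDS5A, ESPL1 and PTTG1) were found among its 58735 genes. All 10 also passed the filter on low values, which left 13150 genes for testing. RNA was sequenced from PC9-BrM3, a line of brain-seeking cells obtained from the human lung adenocarcinoma line PC9 by repeated passage through mouse brain metastases. The 3 BrM3-shAKR1B10 libraries came from cells carrying a lentiviral short hairpin RNA (vector 1) against AKR1B10, an aldo-keto reductase, and the 3 BrM3-shNC libraries came from cells carrying a negative control hairpin, whose genotype the labels give as wild type. Both groups grew in RPMI1640 with fetal bovine serum, with no drug added. The model is 1 cell line with 1 hairpin, and the study's general statement of independent experiments is not specific to these libraries, so the p-values measure only the spread between these libraries, which may be technical.

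Cohesin is a protein ring. SMC1A and SMC3 form its long arms, RAD21 (the kleisin subunit) closes the ring between their heads, and STAG1 or STAG2 docks on RAD21. NIPBL loads the ring on chromatin, where it folds DNA into loops, and WAPL with PDS5A or PDS5B opens it again. After replication the rings hold sister chromatids together, until the protease separase (ESPL1) cleaves RAD21 at anaphase, once its inhibitor securin (PTTG1) has been destroyed. The study singled out RAD21 in these same libraries as a falling cell cycle gene, so its direction here is not independent evidence, and the comparison addressed below is whether RAD21 was lower alone or with its partners.

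RAD21, PTTG1 and ESPL1 kept between 43.7% and 51.3% of the control level in BrM3-shAKR1B10, whereas the other ring subunits kept between 70.7% and 84.7% of it and NIPBL and WAPL showed no detectable difference. Genes with both an adjusted p under 0.05 and a log2 fold change beyond 0.5 in either direction were called. By this rule 3 of the 10 genes were lower and 0 were higher, and 7.45% of all 13150 genes tested were lower and 5.83% higher. By the adjusted p alone, 8 of the 10 were lower and 0 higher, beside 23.1% and 19.4% of all genes. In 9 of the 10 every BrM3-shAKR1B10 library lay below every BrM3-shNC library, which held for 29.2% of all genes, and in 0 of the 10 did the silenced libraries all lie above, which held for 25.5%. The median log2 fold change was -0.43 over the 10 genes and -0.01 over all genes tested. Levels are FPKM (fragment counts scaled to gene length and library size, as deposited), fold changes are on log2(FPKM + 0.1), which understates the change of low genes, and adjusted p-values come from limma with Benjamini-Hochberg adjustment over all 13150 genes.

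**Figure D1:**
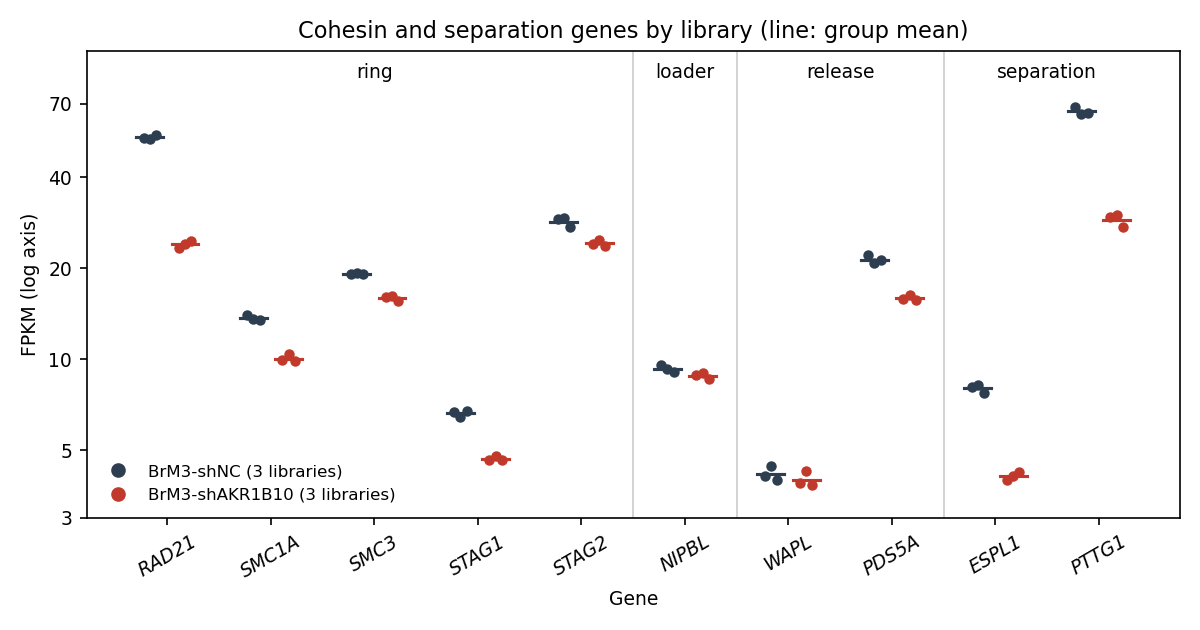
FPKM of the 10 genes in each library, on a log axis, with 1 point per library and a line at the group mean (3 libraries per group). RAD21, PTTG1 and ESPL1 show the widest separation of the groups, and WAPL is the gene whose groups overlap.

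Between 16964504 and 18709028 reads fell on genes in each library, at which 3 reads on a gene of 1000 bases give 0.163 to 0.177 FPKM. The 10 genes had between 491 reads (WAPL) and 6235 reads (RAD21) per library, and counting error alone was at most 4.51% of a value. AKR1B10 itself was at 108, 107 and 110.2 FPKM in BrM3-shAKR1B10 and 799, 775 and 772 FPKM in BrM3-shNC, or 13.9% of the control level. The epithelial markers KRT8, KRT18, KRT19, EPCAM and CDH1 ranged from 46.4 to 939 FPKM in group means, whereas the lung lineage markers NKX2-1, NAPSA and SFTPB were at most 0.560 FPKM and too low to test. The 7 markers of immune, stromal, endothelial and neural cells (PTPRC, CD68, COL1A1, PDGFRB, PECAM1, GFAP and RBFOX3) summed to 1.60 to 1.75 FPKM in the silenced libraries and 2.73 to 2.86 FPKM in the controls, mostly through COL1A1 (1.22 against 1.98 FPKM, log2 fold change -0.67, adjusted p = 0.0032 from limma). None of the 7 was at 0 in every library, and 6 of them had too low a level to be tested. Whether they bear on the changes described below was not tested.

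Among the ring subunits, RAD21 (ENSG00000164754, chromosome 8 from 116845935 to 116874866, GRCh38, minus strand) was at 23.3, 24.1 and 24.7 FPKM in BrM3-shAKR1B10 and at 54.2, 53.5 and 55.2 FPKM in BrM3-shNC. The libraries of each group lay close together, and every silenced library was below the lowest control. The means were 24.0 ± 0.677 and 54.3 ± 0.850 FPKM (SD, n = 3 each), leaving 44.3% of the control level. The log2 fold change was -1.17 (standard error 0.0335, 95% interval -1.25 to -1.09, adjusted p = 8.7e-06 from limma). Only 122 of the 13150 genes tested had a lower fold change. In recovered reads, RAD21 had 2550, 2695 and 2707 in the silenced libraries and 6153, 5601 and 6235 in the controls.

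The SMC arms were lower by a smaller amount. SMC1A (ENSG00000072501, chromosome X from 53374149 to 53422728), the ATPase arm on one side of the ring, was at 9.93, 10.4 and 9.86 FPKM in BrM3-shAKR1B10 and 14.02, 13.6 and 13.5 FPKM in BrM3-shNC. Its groups did not overlap, and its log2 fold change was -0.44 (standard error 0.0394, 95% interval -0.53 to -0.34, adjusted p = 0.00028 from limma), which left 73.6% of the control level. SMC3 (ENSG00000108055, chromosome 10 from 110567691 to 110604636), the other arm and the subunit that is acetylated when cohesion is established, was at 16.0, 16.2 and 15.6 FPKM against 19.2, 19.3 and 19.2 FPKM. The SMC3 groups were also separate, with a log2 fold change of -0.27 (standard error 0.0314, 95% interval -0.34 to -0.19, adjusted p = 0.00086 from limma). Neither arm passed the fold change threshold.

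The STAG subunits are alternatives, since a ring carries either STAG1 or STAG2. STAG1 (ENSG00000118007, chromosome 3 from 136336233 to 136752403) was at 4.65, 4.79 and 4.64 FPKM in BrM3-shAKR1B10 and 6.72, 6.44 and 6.74 FPKM in BrM3-shNC. Its log2 fold change of -0.49 (standard error 0.0434, 95% interval -0.59 to -0.39, adjusted p = 0.00027 from limma) lay just inside the threshold, and it reached -0.51 without the second replicate of either group. STAG2 (ENSG00000101972, chromosome X from 123960212 to 124422664) was at 24.0, 24.9 and 23.7 FPKM against 29.2, 29.3 and 27.3 FPKM, a log2 fold change of -0.24 (standard error 0.0397, 95% interval -0.33 to -0.14, adjusted p = 0.0037 from limma). Both were lower in every silenced library than in any control. STAG2 was the more abundant of the pair in all 6 libraries, and the ratio of STAG1 to STAG2 was 0.194, 0.193 and 0.195 in BrM3-shAKR1B10 and 0.231, 0.220 and 0.246 in BrM3-shNC.

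The loader and release genes were divided. NIPBL (ENSG00000164190, chromosome 5 from 36876759 to 37066413), which loads cohesin and drives loop extrusion, was at 8.88, 9.02 and 8.65 FPKM in BrM3-shAKR1B10 and 9.56, 9.31 and 9.10 FPKM in BrM3-shNC. These groups were separated by a gap smaller than the spread within either, and the log2 fold change was -0.07 (95% interval -0.17 to 0.02, adjusted p = 0.17 from limma). WAPL (ENSG00000062650, chromosome 10 from 86435256 to 86521815), which opens the ring, was at 3.89, 4.26 and 3.83 FPKM against 4.10, 4.43 and 3.98 FPKM. The WAPL groups overlapped, with a log2 fold change of -0.06 (95% interval -0.22 to 0.10, adjusted p = 0.50 from limma). PDS5A (ENSG00000121892, chromosome 4 from 39822863 to 39977956), which binds the ring and takes part in both its release and its protection, was at 15.9, 16.3 and 15.7 FPKM against 22.1, 20.8 and 21.3 FPKM. Unlike its partner WAPL, PDS5A had a log2 fold change of -0.42 (standard error 0.0372, 95% interval -0.51 to -0.33, adjusted p = 0.00027 from limma), under the fold change threshold.

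The genes of sister chromatid separation were the other large falls. PTTG1 (ENSG00000164611, chromosome 5 from 160421822 to 160428744), securin, was at 29.5, 29.97 and 27.3 FPKM in BrM3-shAKR1B10 and 68.2, 64.7 and 65.5 FPKM in BrM3-shNC. It kept 43.7% of the control level, with a log2 fold change of -1.19 (standard error 0.0445, 95% interval -1.30 to -1.08, adjusted p = 1.4e-05 from limma), an interval that contains the value of RAD21. ESPL1 (ENSG00000135476, chromosome 12 from 53268299 to 53293643), separase, was at 3.99, 4.11 and 4.24 FPKM against 8.09, 8.22 and 7.76 FPKM. ESPL1 kept 51.3% of the control level, with a log2 fold change of -0.95 (standard error 0.0468, 95% interval -1.06 to -0.84, adjusted p = 2.9e-05 from limma). The groups of both genes were far apart. In these bulk libraries fewer cells in the cycle phase that uses a gene and less RNA per cell cannot be told apart.

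**Figure D2:**
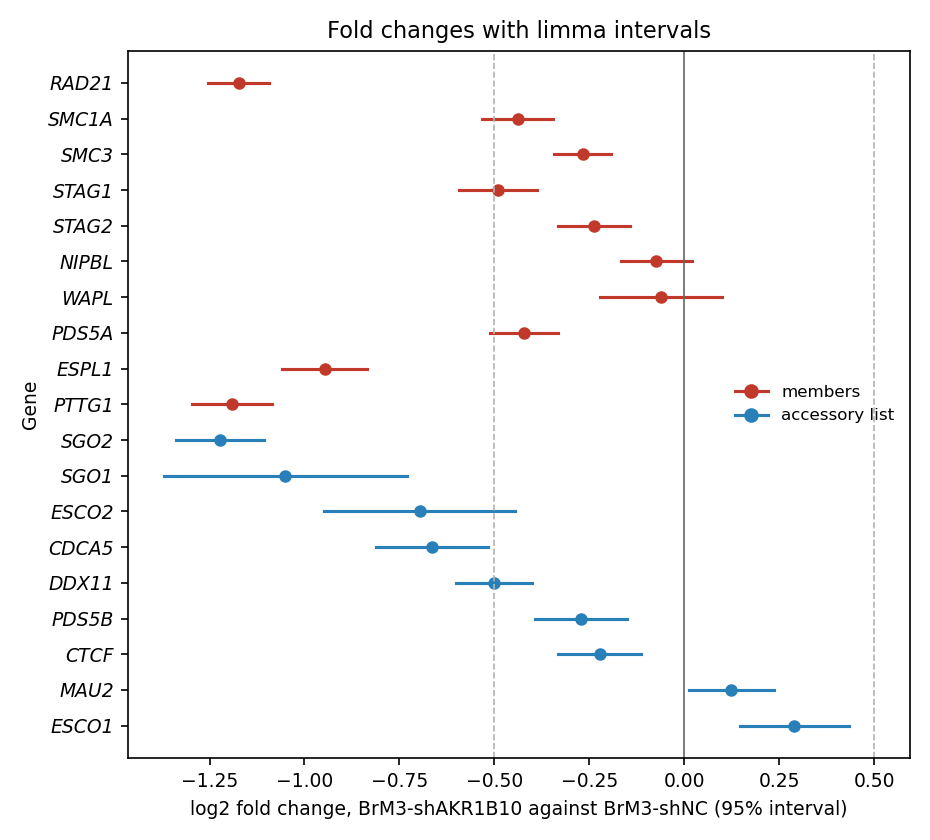
Log2 fold change of BrM3-shAKR1B10 against BrM3-shNC for the 10 genes (red) and the tested cohesin accessory genes (blue), with 95% limma intervals and dashed lines at the threshold of 0.5. RAD21, PTTG1, ESPL1, SGO2 and SGO1 lie near or beyond -0.95, and NIPBL, WAPL and MAU2 lie near 0.

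The relation of RAD21 to its partners was then read within each library, where the scaling between libraries cancels. The ratio of RAD21 to SMC3 was 1.45, 1.49 and 1.58 in BrM3-shAKR1B10 and 2.83, 2.78 and 2.88 in BrM3-shNC. The ratio of RAD21 to SMC1A was 2.35, 2.31 and 2.50 against 3.86, 3.94 and 4.09, and the ratio of RAD21 to STAG2 was 0.970, 0.970 and 1.04 against 1.86, 1.83 and 2.02. All of these ratios were lower in every silenced library, by 0.91 (SMC3), 0.73 (SMC1A) and 0.93 (STAG2) on the log2 scale, and the ratio to STAG1 fell by 0.68. RAD21 thus changed its proportion to each of the 4 other ring subunits by more than the spread between libraries. The exact two-sided permutation test gave p = 0.10 for each, the smallest that 3 against 3 libraries allow, and 0.107 after adjustment over the 15 ratios computed.

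Against securin, the proportion of RAD21 differed by less than the spread of the libraries. The ratio of RAD21 to PTTG1 was 0.790, 0.805 and 0.902 in BrM3-shAKR1B10 and 0.794, 0.826 and 0.843 in BrM3-shNC, and the groups overlapped (log2 difference 0.02, exact two-sided permutation p = 0.90). The ratio of separase to securin was 0.135, 0.137 and 0.155 against 0.119, 0.127 and 0.119, with every silenced library above every control (log2 difference 0.24, exact two-sided permutation p = 0.10). The ratio of RAD21 to its protease ESPL1 was 5.84, 5.87 and 5.81 against 6.69, 6.51 and 7.11, lower by less than the ratios to the ring subunits. The ratios of RAD21 to PTTG1, ESPL1, PDS5A, NIPBL and WAPL and that of STAG1 to STAG2 were chosen after the values were seen.

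**Figure D3:**
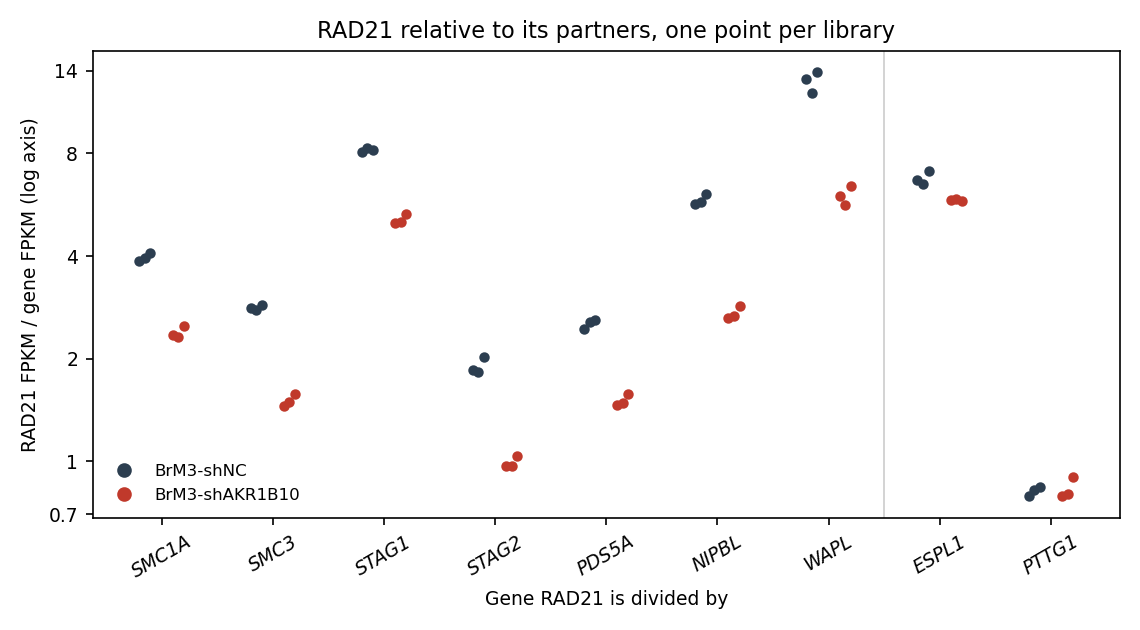
Ratio of RAD21 to the other 9 genes in each library, on a log axis, with 1 point per library. The silenced libraries lie below the controls for every gene but PTTG1, for which the groups overlap.

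The order of levels also differed between the groups. In BrM3-shNC the order from high to low was PTTG1, RAD21, STAG2, PDS5A, SMC3, SMC1A, NIPBL, ESPL1, STAG1 and WAPL, and no neighbors in it overlapped. In BrM3-shAKR1B10 the libraries of RAD21 (24.0 FPKM) overlapped those of STAG2 (24.2 FPKM), those of PDS5A overlapped SMC3, and ESPL1 lay below STAG1 and overlapped WAPL. The deposited gene length counts all annotated exons, which for RAD21 is 6192 bases. With the longest principal coding transcript instead (3749 bases for RAD21), a length chosen after the data were seen, RAD21 stayed above STAG2 in the silenced libraries (39.7 against 32.8 per length) without overlap, as did PDS5A above SMC3 (27.1 against 16.6) and ESPL1 above WAPL (5.52 against 4.56), whereas SMC1A (10.8) overlapped NIPBL (10.6). In the controls RAD21 and STAG2 were at 89.6 and 38.7 on this scale, and STAG2 then overlapped PDS5A and NIPBL overlapped ESPL1. Whether these neighbors overlapped thus depended on the length used.

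Cohesion also depends on proteins that establish and guard it, and of 10 such accessory genes 9 were tested. By the call rule 5 were lower and 0 higher, beside 7.45% and 5.83% of all genes tested. By the adjusted p alone 7 were lower and 1 higher, beside 23.1% and 19.4% of all genes. The median log2 fold change of the 9 genes was -0.50. The shugoshins, which shield centromeric cohesin until anaphase, were the lowest. SGO2 was at 4.89, 4.60 and 4.42 FPKM in BrM3-shAKR1B10 and 11.1, 10.9 and 10.8 FPKM in BrM3-shNC (log2 fold change -1.22, adjusted p = 1.6e-05 from limma). SGO1 was at 1.14, 1.505 and 1.49 FPKM against 3.17, 2.66 and 3.01 FPKM (log2 fold change -1.05, adjusted p = 0.0012 from limma). Both shugoshins had separate groups.

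CDCA5 (sororin), which locks cohesin on replicated DNA against WAPL, was at 15.6, 15.6 and 17.4 FPKM in BrM3-shAKR1B10 and 24.3, 27.2 and 25.6 FPKM in BrM3-shNC (log2 fold change -0.66, adjusted p = 0.00032 from limma). The SMC3 acetyltransferases had opposite signs. ESCO2, which acts in S phase, was at 1.41, 1.35 and 1.26 FPKM against 2.30, 2.04 and 2.38 FPKM (log2 fold change -0.70, adjusted p = 0.0025 from limma). ESCO2 lost its call with a pseudocount of 1 (-0.47) and was not tested at a mean FPKM of at least 5. ESCO1, which acts through the cycle, was at 3.71, 3.94 and 3.65 FPKM against 3.08, 3.16 and 2.94 FPKM (log2 fold change 0.29, adjusted p = 0.0091 from limma), under the fold change threshold. The ratio of ESCO2 to ESCO1, chosen after the values were seen, was 0.380, 0.344 and 0.345 against 0.748, 0.644 and 0.808.

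The helicase DDX11 sat on the threshold (log2 fold change -0.50, adjusted p = 0.00021 from limma) and lost its call in several of the alternative analyses. For PDS5B, the paralog of PDS5A, the log2 fold change was -0.27 with an adjusted p of 0.0057, and for CTCF, the factor at which loop extrusion stops, -0.22 with an adjusted p of 0.0084. MAU2, which forms the loader with NIPBL, was at 5.38, 5.73 and 5.77 FPKM against 5.08, 5.15 and 5.23 FPKM (log2 fold change 0.12, adjusted p = 0.075). HDAC8, which removes the acetyl mark from SMC3, was too low to test (0.788 against 0.672 FPKM). The loader pair therefore showed no call in either direction.

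Of the 4 meiotic relatives of the ring, 2 passed the filter on low values and 0 were called. RAD21L1 had 0 reads in all 6 libraries, which at this depth allows up to 3 reads in each, and SMC1B had 14 to 27 reads per library. REC8, the meiotic kleisin, was not detectably different (log2 fold change -0.41, adjusted p = 0.23 from limma). STAG3 averaged 3.46 FPKM in the silenced and 2.54 FPKM in the control libraries (log2 fold change 0.43, adjusted p = 0.0033 from limma), under the fold change threshold and opposite in sign to STAG1 and STAG2. The securin copies PTTG2 and PTTG3P could share reads with PTTG1, and PTTG2 had 2 reads in 1 control library and 0 elsewhere, while PTTG3P had 0 in all.

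The 12 genes that control separase activation were set beside the 10 genes. By the call rule 11 of the 12 were lower and 0 higher, beside 7.45% and 5.83% of all genes tested. The 12 genes had a median log2 fold change of -1.11. They included CCNB1 (-1.23) and CDK1 (-1.07), whose kinase also inhibits separase, the spindle checkpoint genes BUB1 (-1.30), MAD2L1 (-1.15), BUB1B (-1.08) and TTK (-1.02), and the anaphase-promoting complex genes CDC20 (-1.18), UBE2C (-1.11) and CDC27 (-0.85). The mitotic kinases PLK1 and AURKB had log2 fold changes of -1.14 and -1.11, and FZR1, the activator of that complex at mitotic exit, was not called (-0.24, adjusted p = 0.023 from limma). The study singled out CCNB1 and CDK1, like RAD21, in these same libraries, so their direction here is not independent evidence. RAD21 and PTTG1 lay below the median of this list and ESPL1 above it. STAG1, SMC1A, SMC3 and STAG2 lay between its 2 highest genes, CDC27 and FZR1.

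Condensin, the other SMC complex of mitotic chromosomes, differed from cohesin in that its SMC arms were called. Of its 8 genes 6 were lower and 0 higher, with a median of -0.88. The kleisin NCAPH (-1.22) and its partner NCAPG (-1.16) were lowest, SMC4 (-0.90), SMC2 (-0.88), NCAPD2 (-0.87) and NCAPG2 (-0.83) followed, and NCAPD3 (-0.40) and NCAPH2 (-0.38) were not called. Of these, NCAPG2, NCAPD3 and NCAPH2 belong to condensin II. In the SMC5/6 complex 0 of 9 genes were lower and 1 was higher (EID3, log2 fold change 1.11), with a median of -0.13. Of 54 genes of G2 and M phase 50 were lower and 0 higher, with a median of -1.08, and RAD21 lay below that median. Of 42 tested genes of S phase 19 were lower and 0 higher, with a median of -0.48, close to the values of STAG1, SMC1A and PDS5A, and 0 of them had a lower fold change than RAD21. The G2 and M phase list shares 6 genes with the separase control list, 2 with condensin and 1 (CTCF) with the accessory list. By the call rule used for these counts, 7.45% of all genes tested were lower and 5.83% higher. Differences between these lists were not tested.

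Genes whose pattern over the 6 libraries was nearest to that of a chosen gene were found by the Euclidean distance of log2(FPKM + 0.1), each gene centered on its own mean. The genes nearest to RAD21 were NCAPH (distance 0.0626), the condensin kleisin, PLK1 (0.0654), a mitotic kinase, MTOR (0.0831), a growth kinase, KIF2C (0.0938), a kinesin that shortens microtubules, and ARHGAP11A (0.102). Of the 9 others, PTTG1 was the nearest to RAD21, at rank 29, and ESPL1 followed at rank 119. The ring subunits were far from RAD21, from rank 893 (STAG1) to rank 2592 (STAG2), and WAPL was at rank 5327. The genes nearest to PTTG1 were CENPI (0.0840), MAD2L1 (0.0910), SGO2 (0.0951), CCDC34 (0.104) and RACGAP1 (0.105). With 2 groups of 3, these distances mostly express the size of the difference between the groups.

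Promoter sequence was read from RefSeq windows of 300 bases (250 before to 50 after the start, GRCh38.p14), which matched 9 of the 10 genes and not RAD21. The windows were searched on both strands for the CHR element (TTTGAA or TTCGAA), found in many promoters of late cell cycle genes, the CCAAT box (CCAAT, or ATTGG on the other strand) and E2F sites (TTTGGCGC, TTTCCCGC, TTTGCCGC or TTTCGCGC). These stretches are shown because they hold the elements of securin, separase and sororin, which were called lower, beside those of SMC3 and NIPBL, which were not, with the matched elements in capitals. All are 5′ to 3′ on the gene's strand and end before the deposited gene start, except that of CDCA5, which lies within the deposited gene and is limited to 30 bases.
PTTG1 (chr5:160421695-160421821, plus strand): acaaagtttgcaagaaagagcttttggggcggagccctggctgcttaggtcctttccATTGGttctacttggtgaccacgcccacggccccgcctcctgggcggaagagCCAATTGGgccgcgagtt
ESPL1 (chr12:53268139-53268298, plus strand): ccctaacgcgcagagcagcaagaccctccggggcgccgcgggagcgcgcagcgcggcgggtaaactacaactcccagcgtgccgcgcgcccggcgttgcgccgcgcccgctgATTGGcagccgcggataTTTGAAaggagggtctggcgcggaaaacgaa
CDCA5 (chr11:65084058-65084087, minus strand): ccTTTCCCGCagggcgggtaaTTCGAAcgt
SMC3 (chr10:110567535-110567690, plus strand): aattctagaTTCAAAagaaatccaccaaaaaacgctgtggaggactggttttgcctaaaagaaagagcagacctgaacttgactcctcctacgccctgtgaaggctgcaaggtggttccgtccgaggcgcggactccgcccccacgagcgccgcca
NIPBL (chr5:36876609-36876758, plus strand): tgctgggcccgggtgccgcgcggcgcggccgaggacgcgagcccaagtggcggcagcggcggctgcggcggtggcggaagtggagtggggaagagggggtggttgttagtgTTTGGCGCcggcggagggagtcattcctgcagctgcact

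Distances count from the RefSeq start of a window, which need not be the base after the stretch shown. PTTG1 has 2 such starts, with ATTGG 103, CCAAT 51 and an ATTGG that overlaps it 48 bases before the first, or 158, 106 and 103 bases before the other, and neither window held a CHR match. ESPL1 held ATTGG 48 bases and TTTGAA 31 bases before its start, and CDCA5 held TTTCCCGC 45 bases and TTCGAA 26 bases before its start. SMC3 held TTCAAA, the CHR letters on the other strand, 151 bases before its start, and NIPBL held the E2F letters TTTGGCGC 49 bases before its start. Among the 9 matched genes, 2 held a CHR match (ESPL1 and SMC3), 6 held CCAAT and 4 held an E2F match (SMC1A, STAG1, STAG2 and NIPBL). Over all 27305 genes with a window, the shares were 19.5% for CHR, 39.7% for CCAAT and 3.99% for E2F. The 6 genes with CCAAT were PTTG1 and ESPL1, which were called lower, and STAG1, STAG2, PDS5A and WAPL, which were not. For CHR alone, 7 of 10 matched separase control genes, 6 of 7 condensin genes and 35 of 45 genes of G2 and M phase held a match, as did 4 of 8 accessory genes and 5 of 32 genes of S phase. The 4 accessory genes were SGO1 and CDCA5, which were called lower, and PDS5B and CTCF, which were not. A match to such short letters is a description of the window and not a site that was measured.

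RAD21 was the lowest of the expressed genes around it on chromosome 8. Within 2000000 bases on either side, 7 other genes were tested, of which 0 were called lower and 1 was called higher. That gene was EXT1 (log2 fold change 0.61, adjusted p = 0.00028 from limma), which lost its call with a pseudocount of 1 (0.49) and was not tested at a mean FPKM of at least 5. For MED30 the log2 fold change was -0.43 (adjusted p = 0.0097), for EIF3H -0.15 (adjusted p = 0.022), for TRPS1 0.26 (adjusted p = 0.065), for SAMD12 0.32 (adjusted p = 0.017) and for SAMD12-AS1 0.55 (adjusted p = 0.25). UTP23, which overlaps the end of RAD21 on the opposite strand over 518 of the 6192 RAD21 exon bases (8.37%), was at 4.77 against 4.86 FPKM (log2 fold change -0.02, adjusted p = 0.84).

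Overlap with other genes could touch the levels, since the sources used here do not state whether counting used strand, and reads from opposite strands then cannot be told apart. RAD21-AS1 overlaps RAD21 over 361 exon bases and had only 9 to 22 reads per library. In STAG1, 1664 of 7846 exon bases (21.2%) are shared with PCCB on the opposite strand, and PCCB averaged 8.85 FPKM in the silenced and 7.04 FPKM in the control libraries (log2 fold change 0.33, adjusted p = 0.0017 from limma). The part of PCCB reads in the STAG1 values was not tested. Of the 25 genes that overlap 7 of the 10, UTP23 and PCCB were the 2 with a level high enough to test.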

How the data were processed

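RNA-seq libraries of PC9-BrM3 cells (3 BrM3-shAKR1B10 and 3 BrM3-shNC) were grouped by their labels. The authors aligned reads with HISAT2 2.0.5, counted them per gene with featureCounts 1.5.0-p3 and deposited FPKM values for 58735 genes with gene length and position. The build is not given in the sources used here, but identifiers and positions of 58735 of 58735 genes match GENCODE 29 (GRCh38). Read numbers were computed back from FPKM and gene length (whole within 0.01 for 100% of values), and intervals from them cover counting error only.

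Because the values are FPKM, limma 3.58.1 in R 4.3.3 was used on log2(FPKM + 0.1) with a mean-variance trend, over the 13150 genes whose FPKM averaged 1 or more. Calls needed an adjusted p under 0.05 and a log2 fold change beyond 0.5, the study's thresholds. The scripts were tested on simulated data.

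The 10 genes and the lists (cohesin accessory, germline cohesin, securin copies, separase control, condensin, SMC5/6, S phase, G2 and M phase, markers) were written from general knowledge, with earlier results of these data known. Genes named are the 10, the tested genes that overlap them and RAD21-AS1, the markers, all genes of the first 5 lists, AKR1B10, expressed genes within 2000000 bases of RAD21 and the 5 genes nearest to RAD21 and to PTTG1. The rule also covered the other overlapping genes, which were too low to test and are given as a count. EID3 was chosen after its values were seen. Alternatives were pseudocounts of 1 and 0.01, a mean FPKM of at least 5 or no filter, TPM, median-of-ratios and quantile scaling, no trend, voom on the reads, a block for the replicate number, a threshold of 1 and each library left out. Promoters were read in Python 3.11.15 with numpy 2.4.6 and pandas 2.3.3.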

Additional observations from a re-analysis of the deposited data

How the results depend on the processing

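The 10 genes kept the sign of their fold changes in all alternatives in which they were tested. RAD21 ranged from -1.19 to -1.13, PTTG1 from -1.22 to -1.14 and ESPL1 from -0.97 to -0.82 on the log2 scale, and WAPL was not tested at a mean FPKM of at least 5. The count of lower genes among the 10 was 3, except 4 (with STAG1) without the second replicate of either group and 2 (without ESPL1) at a threshold of 1. Leaving out 1 library in turn gave STAG1 between -0.51 and -0.48. It gave UTP23 between -0.10 and 0.02, with the sign turned without control replicate 1 (0.0244) or 3 (0.0111), and it also turned with TPM (0.0138) and voom (0.0226), always with an adjusted p of at least 0.196. The accessory count fell from 5 to 3 at a mean FPKM of at least 5, 3 with a pseudocount of 1 and 2 at a threshold of 1. It was 4, with DDX11 no longer called, with TPM and quantile scaling and with voom. The same held without silenced replicate 2 or 3 and without control replicate 1 or 2. Over all genes, the excess of lower calls turned with TPM (852 lower, 878 higher) and voom (851 lower, 984 higher). Of all genes, 532 were lower and 290 higher at a mean FPKM of at least 5, where 0 SMC5/6 genes were higher, 497 were higher with a pseudocount of 1, and 205 were lower and 168 higher at a threshold of 1, where condensin had 2 and S phase 1. The first setting tests fewer genes, the last demands a larger change, and for the pseudocount the cause was not tested. The median of all genes stayed between -0.03 and 0.04.

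Same-numbered libraries of the groups did not deviate together (correlations -0.0155, 0.00388 and 0.00383). With 3 libraries per group this cannot show whether they were prepared in pairs. With the replicate block, RAD21 kept -1.17 (adjusted p = 0.00072 from limma), 3 of the 10 genes were lower and 967 genes were lower and 719 higher. Depth limits the scarce genes, such as RAD21L1, SMC1B and RAD21-AS1.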
